A study of Mus musculus with 6 samples.

Results

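Transcripts of 7 genes of cholesterol synthesis and its control (Srebf2, Insig1, Hmgcs1, Idi1, Fdps, Sqle and Lss) were examined in cultured mouse bone cells labelled MSC. The cultures carried or lacked a conditional deletion of Zeb1 in cells of the Prx1 lineage. The 7 genes were chosen by gene name from the 54532 genes of the deposited table, before any filter but with earlier results of these data known. All 7 passed the filter on low values. None of the 7 acts in lipoprotein uptake, so uptake is described from a separate list further on. The Zeb1Prx1 group was Prx1-Cre+ with the ROSA-YFP reporter and Zeb1fl/fl alleles, and the WT group was likewise Prx1-Cre+ with ROSA-YFP but had Zeb1wt/wt alleles, so Cre and reporter were shared by both groups. Prx1-Cre acts in limb bud mesenchyme, and deletion is therefore limited to cells with a history of its activity. Cells grew out of collagenase-digested chips of femur and tibia in culture, were sorted for the reporter and were not treated. Each genotype had 3 libraries. Age, sex and the number of mice behind the replicates are not in the labels. Each p-value therefore reflects spread between libraries, which need not be spread between mice.

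Cholesterol is built in the cytosol and endoplasmic reticulum from acetyl-CoA. Hmgcs1 makes HMG-CoA ahead of mevalonate, Idi1 and Fdps assemble the isoprenoid units into farnesyl diphosphate, Sqle adds oxygen to squalene, and Lss closes the rings to give lanosterol. Srebf2 encodes SREBP2, the membrane-bound transcription factor that is released by proteolysis when sterols are scarce and then activates the genes of the pathway. Insig1 encodes a protein that holds SREBP in the endoplasmic reticulum when sterols are plentiful, and it is itself an SREBP target. Skeletal stromal cells and macrophages both run this pathway, and macrophages also take up and export much cholesterol.

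Promoter windows from RefSeq (GRCm38.p6, 250 bases before to 50 after the start) were available for 5 of the 7 genes, namely Srebf2, Insig1, Hmgcs1, Idi1 and Lss. Up to the first 200 bases of the window, ending before the deposited gene start, are shown for the 2 regulators and for the enzyme genes at either end of this part of the pathway, because SREBP acts on such promoters. The stretches end 51 bases before the RefSeq start for Insig1, Hmgcs1 and Lss and 89 bases before it for Srebf2, so matches closer to the start are not shown. Capitals mark matches on either strand to 4 motifs. The first is TCACNCCA, the beginning of a sterol regulatory element. The CCAAT box appears below on its opposite strand. The third motif is CACCTG, an E-box that ZEB1 and the Snail proteins bind, and the last is the palindromic E-box CACGTG. All 4 stretches lie on the plus strand: Srebf2 at chr15:82147019-82147180, Insig1 at chr5:28071162-28071361, Hmgcs1 at chr13:119690101-119690300 and Lss at chr10:76531355-76531554.
Srebf2: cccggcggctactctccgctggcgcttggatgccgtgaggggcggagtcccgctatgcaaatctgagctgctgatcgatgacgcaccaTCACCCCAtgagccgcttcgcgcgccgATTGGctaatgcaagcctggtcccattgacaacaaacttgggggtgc
Insig1: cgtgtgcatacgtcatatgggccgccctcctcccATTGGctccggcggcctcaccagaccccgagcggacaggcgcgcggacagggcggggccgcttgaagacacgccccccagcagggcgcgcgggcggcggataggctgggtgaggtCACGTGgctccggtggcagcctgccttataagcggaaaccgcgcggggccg
Hmgcs1: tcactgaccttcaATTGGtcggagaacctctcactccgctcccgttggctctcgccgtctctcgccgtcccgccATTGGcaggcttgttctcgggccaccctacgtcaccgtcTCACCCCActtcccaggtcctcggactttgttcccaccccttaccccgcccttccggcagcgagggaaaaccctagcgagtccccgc
Lss: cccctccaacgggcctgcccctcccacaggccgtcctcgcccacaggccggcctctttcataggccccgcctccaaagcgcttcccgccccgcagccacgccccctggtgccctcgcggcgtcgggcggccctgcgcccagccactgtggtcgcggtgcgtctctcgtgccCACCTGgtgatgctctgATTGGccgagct

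Over the whole windows, TCACNCCA matched in Srebf2 and Hmgcs1, against 4.36% of the 32851 windows in the table, and the longer form TCACNCCAC, which contains it, matched in Hmgcs1 alone of the 5 (1.24% of windows). CCAAT matched in all 5 (37.4% of windows), with 4 matches in Hmgcs1 and 2 in Idi1. The GC box GGGCGG, not capitalised above, also matched in all 5 (35.7% of windows). CACCTG matched in Lss and, after the start, in Srebf2 (20.2% of windows), and CACGTG in Insig1 (7.15% of windows). These matches describe letters in a window and show no binding.

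Zeb1, the deleted gene, had 1.92, 1.59 and 2.84 FPKM (fragments normalised to gene length and to the library total) in the Zeb1Prx1 libraries, against 6.61, 10.3 and 7.12 FPKM in the WT libraries, without overlap. Assigned fragments, recovered from the FPKM, numbered 14724357 to 18354894 per library. Replicate 2 of Zeb1Prx1 stood apart in its FPKM sum, 372566 against 278987 to 312038 in the other 5 libraries, so the log2 change of each of the 7 genes without it is given below. Stromal markers, 10 of 10 detected in each library, summed to 2808 to 5689 FPKM in Zeb1Prx1 and 2155 to 3289 FPKM in WT libraries. Macrophage markers, also detected throughout (12 of 12), summed to 9910 to 20447 FPKM in Zeb1Prx1 and 11914 to 14718 FPKM in WT libraries, led by Lyz2. This sum was above the stromal sum in every library, and the share of RNA from cells outside the Prx1 lineage was not measured. The mean log2(FPKM + 1) of the macrophage list was 7.51 to 7.87 in Zeb1Prx1 and 7.91 to 8.07 in WT libraries, without overlap. The chondrocyte list summed to 70.0 to 1435 FPKM in Zeb1Prx1 libraries and 6.89 to 10.5 FPKM in WT libraries, and 3, 2 and 1 of its 7 genes were at 0 in WT replicates 1, 2 and 3. Adipocyte markers summed to 2.24 to 3.30 FPKM in Zeb1Prx1 and 2.02 to 3.43 FPKM in WT libraries with Lep at 0 throughout, and endothelial markers to 0.368 to 0.515 FPKM in Zeb1Prx1 and 0.423 to 0.883 FPKM in WT libraries. Xist had 0.00309 to 12.6 FPKM in Zeb1Prx1 and 26.8 to 40.4 FPKM in WT libraries, and Y-linked Ddx3y 14.6 to 21.9 FPKM in Zeb1Prx1 and 4.45 to 8.19 FPKM in WT libraries. Neither overlapped between genotypes, and every WT library held both transcripts, so sex mix and genotype cannot be told apart here. The part of these differences in the results below was not tested, beyond a fit with the macrophage mean as a covariate. In such bulk libraries, fewer cells of a type and less RNA per cell cannot be told apart.

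Whether deletion of Zeb1 altered cholesterol synthesis genes was asked with limma on log2(FPKM + 1), where a pass means a Benjamini-Hochberg adjusted p under 0.05 over all 12534 genes tested. None of the 7 genes passed, nor did any of the 12534 (0 called by limma, background 0%, and 0 by voom on recovered fragments). Zeb1 itself, at 0.264-fold, did not pass (log2 change -1.53, SE 0.22; limma adjusted p = 0.229). This threshold thus missed even the deleted gene. An unadjusted limma p under 0.05 was reached by 1897 genes (15.1%). By point estimate, 6 of the 7 log2 changes lay below 0, against 48.1% of all tested genes, with a median of -0.22 against 0.02 for all tested genes. Because the 7 were chosen with earlier results of these data known, this comparison is a description and not a test. Srebf2 and Idi1 were the 2 genes with an unadjusted limma p under 0.05 and were lower in Zeb1Prx1, where 6.98% of all tested genes were lower at that level. The same 2 genes had no overlap between genotypes with Zeb1Prx1 lower, as did 11.8% of all tested genes. The unadjusted count included 0 or 1 of the 7 when any of the 6 libraries was left out, and 9.1% to 23% of the genes tested in those fits.

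**Figure D1:**
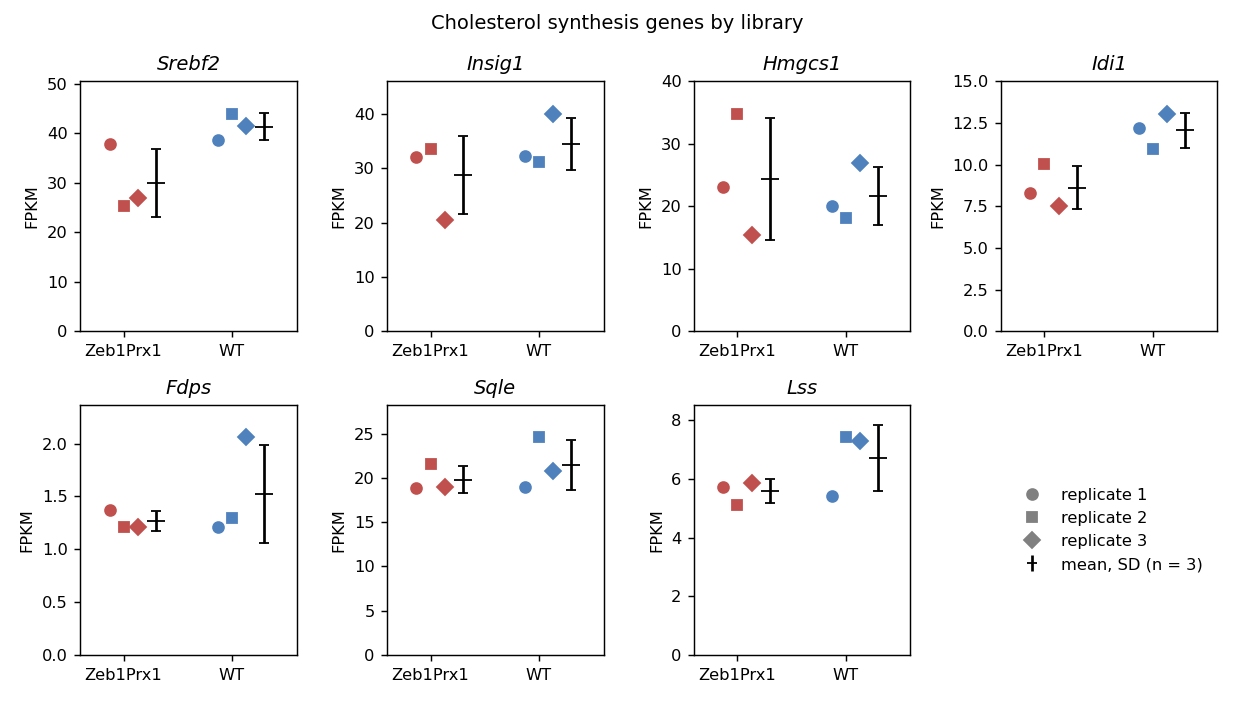
FPKM of the 7 genes (vertical axes, each starting at 0) in each library, with Zeb1Prx1 at the left and WT at the right; symbols mark the replicate and black bars the mean and SD of 3 libraries. Srebf2 and Idi1 separate the genotypes, while Hmgcs1 spans 15.4 to 34.8 FPKM in Zeb1Prx1 and surrounds the WT values.

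Srebf2 (ENSMUSG00000022463, mm10 chromosome 15, 82147181 to 82205379, plus strand) had 37.7, 25.2 and 26.9 FPKM in Zeb1Prx1 replicates 1, 2 and 3, against 38.6, 43.9 and 41.5 FPKM in WT. Every Zeb1Prx1 library lay below every WT library, but replicate 1 of Zeb1Prx1 came within 1 FPKM of WT replicate 1. The means were 30.0 ± 6.79 FPKM in Zeb1Prx1 and 41.3 ± 2.70 FPKM in WT (SD, n = 3 each), 0.725-fold, from 2951 to 5070 fragments per library. The log2 change was -0.47 (SE 0.19, 95% interval -0.92 to -0.03; limma adjusted p = 0.32, unadjusted p = 0.0408). It was -0.36 without Zeb1Prx1 replicate 2 and -0.64 without Zeb1Prx1 replicate 1. Gm49502, a transcript of unknown coding status inside Srebf2 on the same strand, had at most 38 fragments in any library, and Mir33, the microRNA gene in a Srebf2 intron, at most 1.

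Insig1 (ENSMUSG00000045294, chromosome 5, 28071363 to 28078662, plus strand) had 32.0, 33.6 and 20.5 FPKM in Zeb1Prx1 libraries, against 32.3, 31.1 and 40.0 FPKM in WT. Replicates 1 and 2 of Zeb1Prx1 lay within the WT range, and replicate 3 lay below every WT library. Means were 28.7 ± 7.17 FPKM in Zeb1Prx1 and 34.5 ± 4.85 FPKM in WT (SD, n = 3 each), and the log2 change was -0.28 (SE 0.22, 95% interval -0.81 to 0.25; limma adjusted p = 0.535). Without Zeb1Prx1 replicate 3 it was -0.06, and without Zeb1Prx1 replicate 2 it was -0.40.

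Both regulators have a paralog in the list of SREBP processing and sterol sensing. Srebf1, which encodes the SREBP1 isoforms of lipid synthesis, had 35.2, 35.4 and 41.7 FPKM in Zeb1Prx1 libraries and 27.8, 30.2 and 30.2 FPKM in WT, the reverse order of Srebf2 and likewise without overlap (log2 change 0.33, SE 0.14; limma adjusted p = 0.33). Within a library, where scaling between libraries cancels, the ratio of Srebf2 to Srebf1 FPKM was 1.07, 0.713 and 0.644 in Zeb1Prx1, against 1.38, 1.46 and 1.37 in WT. The mean ratio was 0.81 ± 0.23 in Zeb1Prx1 and 1.40 ± 0.0463 in WT (SD, n = 3 each), a log2 difference of -0.83. In FPKM, Srebf2 was lower and Srebf1 higher, each without overlap, so the ratios had to separate. The two-sided exact permutation p of 0.1, the smallest that 3 against 3 allows, was therefore fixed in advance and adds no support. This ratio was chosen after its values were seen. The ratio of Insig1 to its paralog Insig2 was 2.17, 2.14 and 0.839 in Zeb1Prx1, against 2.41, 1.69 and 3.16 in WT, and overlapped (exact permutation p = 0.4, two-sided, n = 3 each).

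Hmgcs1 (ENSMUSG00000093930, chromosome 13, 119690379 to 119708260, plus strand), at the head of the pathway, was the 1 gene with a point estimate above 0. It had 23.0, 34.8 and 15.4 FPKM in Zeb1Prx1 libraries, against 20.0, 18.2 and 26.9 FPKM in WT. Zeb1Prx1 held both the highest and the lowest of the 6 values, so the genotypes overlapped fully. Means were 24.4 ± 9.77 FPKM in Zeb1Prx1 and 21.7 ± 4.61 FPKM in WT (SD, n = 3 each), with a log2 change of 0.11 (SE 0.30, 95% interval -0.60 to 0.82; limma adjusted p = 0.865). The sign turned without Zeb1Prx1 replicate 2 (-0.17), and after every library was brought to the same FPKM sum it was -0.054. On that scale, which is the TPM of a library, Hmgcs1 had 81.3, 93.5 and 49.5 in Zeb1Prx1 and 70.0, 62.8 and 96.5 in WT.

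Idi1 (ENSMUSG00000058258, chromosome 13, 8885501 to 8892451, plus strand), the isomerase that readies isoprenoid units for joining, had 8.29, 10.1 and 7.51 FPKM in Zeb1Prx1 libraries, against 12.2, 11.0 and 13.1 FPKM in WT. All 3 Zeb1Prx1 libraries lay below all 3 WT libraries, from 402 to 783 fragments per library. Means were 8.62 ± 1.30 FPKM in Zeb1Prx1 and 12.1 ± 1.05 FPKM in WT (SD, n = 3 each), 0.714-fold, and the log2 change was -0.45 (SE 0.15, 95% interval -0.81 to -0.09; limma adjusted p = 0.292, unadjusted p = 0.022), and -0.55 without Zeb1Prx1 replicate 2 (limma adjusted p = 0.302). Without each of the other libraries the log2 change lay between -0.51 (WT replicate 2) and -0.36 (Zeb1Prx1 replicate 3, the lowest library for Idi1). Among fits that left out a library, its unadjusted limma p was under 0.05 only without Zeb1Prx1 replicate 2 or WT replicate 2. On the TPM scale the gap was wider, with 29.3, 27.0 and 24.1 TPM in Zeb1Prx1 and 42.8, 37.8 and 46.8 TPM in WT. Its smallest adjusted p, 0.0498, came with library weights (log2 change -0.58), which gave Zeb1Prx1 replicate 3 a weight of 2.82 and replicate 2 a weight of 0.226. The paralog Idi2 was listed at 0 in all 6 libraries.

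Fdps (ENSMUSG00000059743, chromosome 3, 89093588 to 89101959, minus strand), which makes farnesyl diphosphate for sterols and for protein prenylation, was the lowest of the 7. It had 1.38, 1.21 and 1.21 FPKM in Zeb1Prx1 libraries, against 1.21, 1.30 and 2.06 FPKM in WT, with 78 to 133 fragments behind each value. Only WT replicate 3 lay outside the range of the other 5 libraries by more than 0.5 FPKM. The log2 change was -0.14 (SE 0.18, 95% interval -0.57 to 0.29; limma adjusted p = 0.708), 0.0087 without WT replicate 3, and -0.12 when Zeb1Prx1 replicate 2 was left out. The level of Fdps is uncertain: its span holds Gm43738, a same-strand gene listed at 0, over 7512 bases, and a processed pseudogene of Fdps in the table is also listed at 0. How fragments shared by such copies were assigned is not given in the sources used here.

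Sqle and Lss act on the steps from squalene to lanosterol. Sqle (ENSMUSG00000022351, chromosome 15, 59315077 to 59331192, plus strand), a controlled oxygen-dependent step, had 18.8, 21.6 and 19.0 FPKM in Zeb1Prx1 libraries, against 19.0, 24.6 and 20.8 FPKM in WT. The ranges overlapped, and the log2 change was -0.11 (SE 0.15, 95% interval -0.47 to 0.25; limma adjusted p = 0.737). Leaving out Zeb1Prx1 replicate 2 gave -0.17, leaving out WT replicate 2 gave -0.0085, and leaving out WT replicate 1 gave -0.19. Lss (ENSMUSG00000033105, chromosome 10, 76531588 to 76557138, plus strand) had 5.75, 5.11 and 5.88 FPKM in Zeb1Prx1 libraries, against 5.43, 7.42 and 7.29 FPKM in WT. WT replicate 1 lay among the Zeb1Prx1 values and the other two WT libraries above them. The log2 change of Lss was -0.22 (SE 0.16, 95% interval -0.59 to 0.15; limma adjusted p = 0.482), and leaving out Zeb1Prx1 replicate 2 gave -0.17 and WT replicate 1 gave -0.35. An antisense transcript inside Lss, 4930483K19Rik, had at most 4 fragments in any library, and an antisense transcript across Hmgcs1, Gm48342, at most 5.

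Per length of the deposited gene models, the order of levels was nearly fixed. Srebf2 was the highest of the 7 in 5 of the 6 libraries, the exception being Zeb1Prx1 replicate 2, where Hmgcs1 (34.8 FPKM) and Insig1 (33.6 FPKM) exceeded Srebf2 (25.2 FPKM). Insig1 was the second in all 6 libraries. Hmgcs1 and Sqle exchanged places, with WT means of 21.7 and 21.5 FPKM that differed by less than their SDs of 4.61 and 2.84. Idi1, Lss and Fdps were the fifth, the sixth and the seventh in every library. Relative spread between Zeb1Prx1 libraries was greatest for Hmgcs1 (coefficient of variation 40.0%, against 21.3% in WT), and between WT libraries for Fdps (7.38% in Zeb1Prx1, against 30.7% in WT). Zeb1Prx1 replicate 3 was the lowest of all 6 libraries for 3 of the 7 genes (Insig1, Hmgcs1 and Idi1), and for 2044 of the 12534 genes tested. That library also had the highest chondrocyte and stromal marker sums (1435 and 5689 FPKM). A link between these was not tested.

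**Figure D2:**
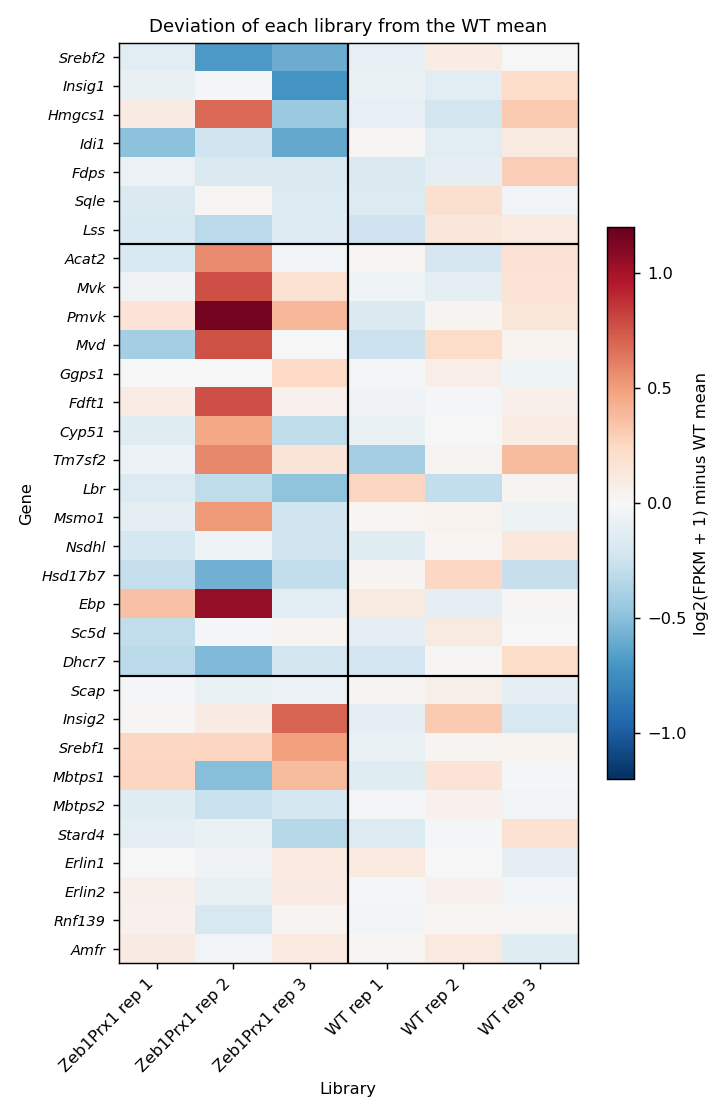
Log2(FPKM + 1) of each library (columns, Zeb1Prx1 left of WT) minus the WT mean, as colour, for the 7 genes (top block), 15 other sterol synthesis enzymes (middle) and 10 genes of SREBP processing and sterol sensing (bottom). Zeb1Prx1 replicate 2 is red for Hmgcs1 and several enzymes of the middle block and blue for Srebf2, while Srebf1 is red in all 3 Zeb1Prx1 libraries.

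With the mean of the macrophage markers as a covariate, the estimates moved apart. The log2 change of Srebf2 was -0.69 (limma adjusted p = 0.241) and that of Idi1 -0.15 (adjusted p = 0.701). Hmgcs1 had a log2 change of 0.99 in that fit (adjusted p = 0.179, under 0.05 before adjustment), Insig1 of 0.16 and Sqle of 0.11, neither under 0.05 before adjustment. In the same fit, 23.7% of all tested genes were under 0.05 before adjustment. The macrophage means of the genotypes did not overlap, so genotype and macrophage level can be told apart only by their spread within each genotype.

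**Figure D3:**
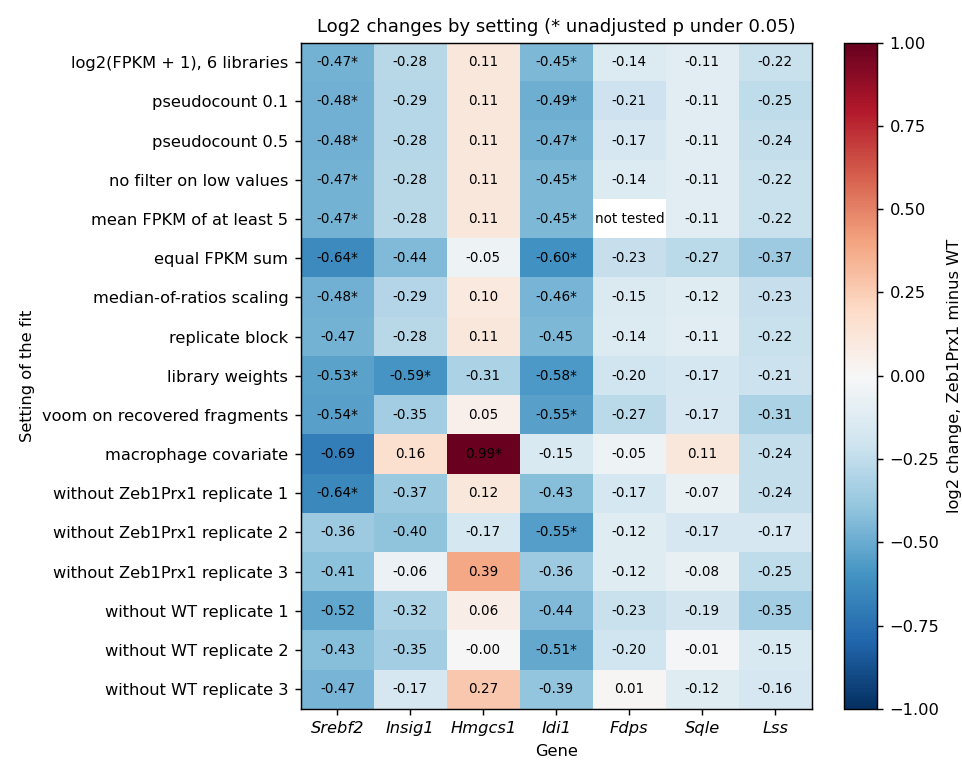
Log2 change, Zeb1Prx1 minus WT, of each of the 7 genes (columns) under each setting of the fit (rows), as number and colour, with an asterisk for an unadjusted limma p under 0.05. Srebf2, Idi1 and Lss are negative in every row, and Hmgcs1 ranges from -0.31 to 0.99.

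Enzymes of the pathway outside the 7 had log2 changes on both sides of 0. Of the 15 reported here, none passed and 5 of 15 had a log2 change below 0 (48.1% of all tested genes), with a median of 0.08 and a range from -0.39 to 0.57. At an unadjusted limma p under 0.05, 0 of the 15 were lower and 0 higher, against 6.98% and 8.15% of all tested genes. Hsd17b7, a ketosteroid reductase of the later steps, had the smallest p of the 15, with 9.83, 7.87 and 9.75 FPKM in Zeb1Prx1 libraries and 12.5, 14.7 and 9.93 FPKM in WT (log2 change -0.39, SE 0.18; limma adjusted p = 0.35). Its genotypes did not overlap, but Zeb1Prx1 replicate 1 came within 1 FPKM of WT replicate 3. Pmvk, the phosphomevalonate kinase, had no overlap in the other direction, with 9.01, 18.9 and 10.8 FPKM in Zeb1Prx1 libraries and 6.92, 8.12 and 8.90 FPKM in WT (log2 change 0.57, SE 0.26; limma adjusted p = 0.35), a gene picked for its values. On the TPM scale Pmvk overlapped, with 31.8, 50.7 and 34.7 TPM in Zeb1Prx1 libraries and 24.3, 28.0 and 31.9 TPM in WT. In FPKM, the 15 enzymes thus held 1 lower and 1 higher gene without overlap, against 11.8% and 12.6% of all tested genes. Zeb1Prx1 replicate 2 was the highest of the 6 libraries for 9 of the 15 enzymes (60%), against 32.2% of all tested genes, and for Hmgcs1 alone among the 7.

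**Figure D4:**
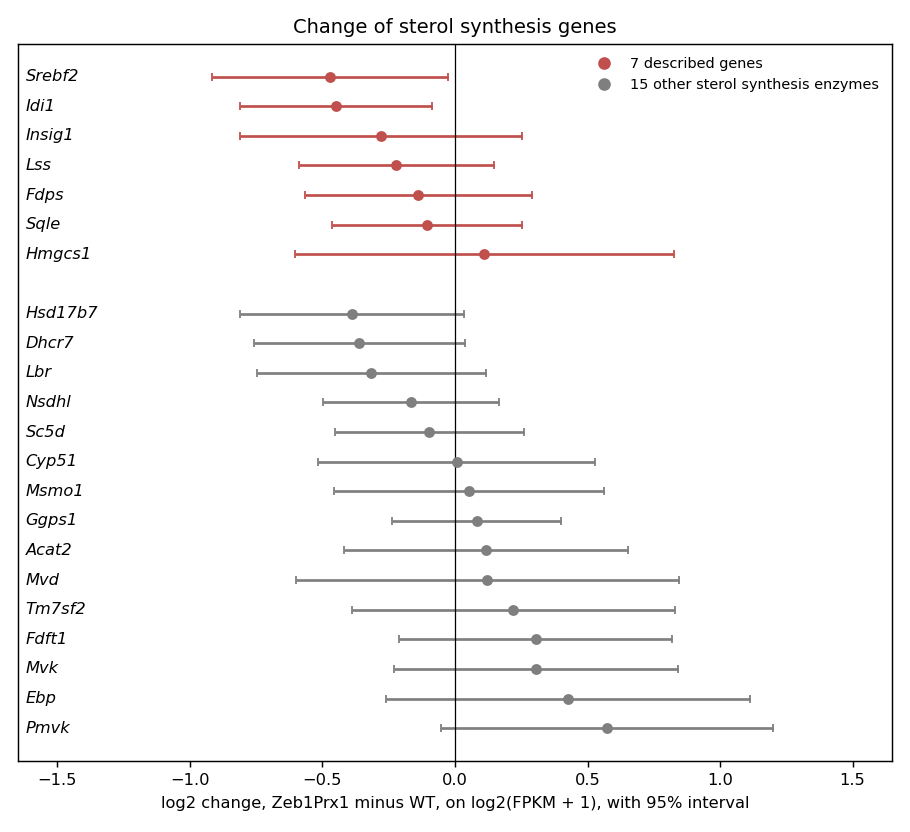
Log2 change with 95% interval (horizontal axis, Zeb1Prx1 minus WT on log2(FPKM + 1), n = 3 each) of the 7 genes (red) and of 15 other sterol synthesis enzymes (grey), each sorted from low to high. Intervals of Srebf2 and Idi1 lie below 0, and those of the other 20 genes include 0; none passed after adjustment.

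Genes that process SREBP or sense sterols showed small differences. None of 10 passed, and 0 reached an unadjusted limma p under 0.05, against 15.1% of all tested genes. Of the 10, 4 had a log2 change below 0 (median 0.03, range -0.21 to 0.33), against 48.1% of all tested genes. In FPKM, 1 was lower and 1 higher without overlap, against 11.8% and 12.6% of all tested genes. Srebf1, described above, had the smallest p of the list. Scap, the escort of SREBP to the Golgi, had 10.8 ± 0.245 FPKM in Zeb1Prx1 and 11.3 ± 0.782 FPKM in WT (SD, n = 3 each), and is named here after its values were seen.

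Cholesterol handling outside synthesis was described by a list of uptake and lysosomal release and a list of efflux and storage. Of all tested genes, 48.1% were below 0, 6.98% were lower and 8.15% higher at an unadjusted limma p under 0.05, and 11.8% were lower and 12.6% higher without overlap. For lipoprotein uptake and lysosomal release, 9 of 11 tested genes were below 0 (median -0.28), with 3 lower and 0 higher at an unadjusted p under 0.05, 5 lower and 0 higher without overlap, and 0 passing. The 3 were the fatty acid and oxidised LDL receptor Cd36 (5.51 ± 2.12 FPKM in Zeb1Prx1 and 13.7 ± 5.69 FPKM in WT), the lysosomal lipase Lipa (143 ± 24.6 FPKM in Zeb1Prx1 and 223 ± 13.4 FPKM in WT) and the lysosomal cholesterol exporter Npc1 (13.1 ± 4.59 FPKM in Zeb1Prx1 and 20.3 ± 2.26 FPKM in WT; SD, n = 3 each). Their limma adjusted p lay between 0.275 and 0.318, and none of the 3 overlapped between genotypes. Efflux and storage genes were below 0 in 5 of 7 and lower without overlap in 3 of 7, with the exporters Abcg1 (6.58 ± 0.799 FPKM in Zeb1Prx1 and 10.7 ± 0.752 FPKM in WT) and Abca1 (14.5 ± 4.94 FPKM in Zeb1Prx1 and 26.9 ± 6.23 FPKM in WT) lower at an unadjusted p under 0.05 (limma adjusted p = 0.258 and 0.286). Macrophages express these genes strongly, but which cells expressed them here was not tested. Of the 12 macrophage markers, 10 were below 0 (median -0.35) and 2 above, Lyz2 (log2 change 0.10) and Tyrobp (0.13). At an unadjusted p under 0.05, 4 of the markers were lower and 0 higher. A link between the markers and these lists was not tested.

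In fatty acid synthesis, 8 of 10 tested genes were below 0 (median -0.15), against 48.1% of all tested genes. At an unadjusted p under 0.05, 2 were lower and 0 higher (6.98% and 8.15% of all tested genes), and 0 passed. Fasn, the fatty acid synthase, had 26.9, 14.1 and 19.4 FPKM in Zeb1Prx1 libraries and 32.3, 32.4 and 32.3 FPKM in WT (log2 change -0.70, SE 0.23; limma adjusted p = 0.288). Acly, which supplies cytosolic acetyl-CoA to both pathways, had 44.1, 36.8 and 44.9 FPKM in Zeb1Prx1 libraries and 50.6, 59.1 and 59.9 FPKM in WT (log2 change -0.42, SE 0.16; limma adjusted p = 0.302). Neither gene overlapped between genotypes, as for 11.8% of all tested genes with Zeb1Prx1 lower. In FPKM, the list held 1 gene without overlap that was higher in Zeb1Prx1 (12.6% of all tested genes), Me1, the malic enzyme that supplies NADPH, with 34.5, 34.4 and 28.6 FPKM in Zeb1Prx1 libraries and 27.9, 25.1 and 17.0 FPKM in WT (log2 change 0.48, SE 0.21; limma adjusted p = 0.335), a gene likewise picked for its values. On the TPM scale Me1 overlapped, with 122, 92.4 and 91.7 TPM in Zeb1Prx1 libraries and 97.9, 86.6 and 61.1 TPM in WT.

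**Figure D5:**
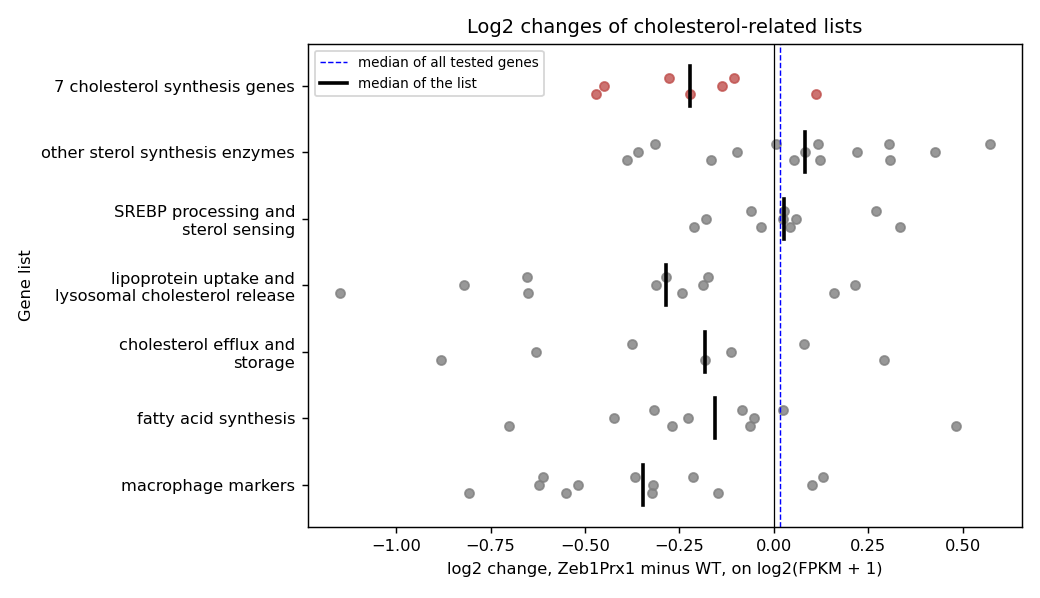
Log2 change of each tested gene (points; Zeb1Prx1 minus WT on log2(FPKM + 1)) in the 7 cholesterol synthesis genes (red), 5 related lists and the macrophage markers (grey), with the list median (black bar) and the median of all tested genes (dashed line, 0.02). Medians lie at -0.22 for the 7 genes, 0.08 for other sterol enzymes and -0.35 for macrophage markers.

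The 7 genes varied together only in part. Over the 6 libraries, Pearson's r of log2(FPKM + 1) between 2 of them ranged from -0.27 (Hmgcs1 with Lss) to 0.79 (Insig1 with Idi1) across the 21 pairs, as a description of libraries that share genotype and scaling. Among 7250 other protein-coding genes that averaged 5 FPKM or more, the 5 most like the mean of the 7 standardised profiles over the 6 libraries were Arap1 (r = 0.98), Stard4 (0.98), Adamts10 (0.97), S1pr2 (0.97) and Cacng7 (0.97). As the highest of 7250 over only 6 libraries, these r values are a description and no test of shared control. Stard4, a cytosolic sterol carrier, is also in the list of sterol sensing; it had 10.6, 10.8 and 8.92 FPKM in Zeb1Prx1 libraries and 10.2, 11.4 and 13.2 FPKM in WT (log2 change -0.18, SE 0.15; limma adjusted p = 0.558). Arap1, an Arf GTPase-activating protein, had 21.0, 20.5 and 16.5 FPKM in Zeb1Prx1 libraries and 22.9, 26.3 and 29.4 FPKM in WT, without overlap (limma adjusted p = 0.311), as for 11.8% of all tested genes with Zeb1Prx1 lower. It was picked for its likeness to the mean of the 7, so its separation adds no support.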

How the data were processed

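Paired-end RNA sequencing (150 bp) of 3 Zeb1Prx1 and 3 WT libraries was deposited by the authors as 1 table of FPKM with gene lengths per the file headers; mm10 is the build that the submitters' processing notes name. Neither the aligner nor the counter or its use of strand is given in the sources used here, so overlapping and antisense genes cannot be told apart. Within each library, FPKM multiplied by length came in whole multiples of the smallest non-zero product (relative tolerance 1e-06, all non-zero values), which gave fragment numbers; 3 fragments, the limit a count of 0 allows, equal 0.163 to 0.204 CPM, for counting error only.

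The test was limma 3.58.1 (R 4.3.3) with an intensity trend on log2(FPKM + 1), which understates changes of low genes, for 12534 genes with at least 1 FPKM in at least 3 of 6 libraries, checked on simulated data. TPM were computed here by scaling each library's FPKM to a common sum. Genes named by rule beyond the 7 were those of each list with the smallest unadjusted p (up to 3 per direction under 0.05, otherwise 1), and the 5 most similar profiles. Pmvk, Scap and Me1 were named outside this rule, after their values were seen. Zeb1, markers of cell type and sex, and paralogs and overlapping genes of the 7 were also named. The 7 genes, lists and alternatives were chosen with earlier results of these data known. The lists do not hold every gene of their pathways, and a result for 1 listed gene is not reported here. Alternatives were other pseudocounts, filters, scalings, a replicate block, library weights, voom on fragments, a macrophage covariate and leaving out each library. Replicate libraries of a genotype differed beyond sampling noise. Correlations of deviations were 0.03, -0.41 and 0.08 between same-numbered libraries, and -0.48 to 0.46 between differently numbered ones. They gave no sign of pairing by number but cannot show whether same-numbered cultures were handled together.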

Additional observations from a re-analysis of the deposited data

How the results depend on the processing

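Srebf2, Idi1 and Lss kept a log2 change below 0 in all 16 alternatives (-0.69 to -0.36, -0.60 to -0.15 and -0.37 to -0.15), and the median of the 7 stayed between -0.37 and -0.05. The sign of Hmgcs1 turned with an equal FPKM sum (-0.054) and with library weights (-0.31), and its values without each library ranged from -0.17 to 0.39; those of Fdps ranged from -0.23 to 0.0087. With the macrophage covariate Insig1 had 0.16 and Sqle 0.11. Library weights called 447 genes at an adjusted p under 0.05, Idi1 among them (log2 change -0.58), against 0 without weights. Leaving out a library called 0 to 1 genes, and the other alternatives 0. At an unadjusted p under 0.05, the genes numbered 1897 (15.1% of those tested) in the fit reported and 3866 (30.8%) with library weights. They numbered 2972 (23.7%) with the macrophage covariate, 1347 (10.7%) with the replicate block and 1118 to 2821 (9.1% to 23%) without each library. Of the 7, 2 were under that level; the number was 1 with the macrophage covariate, 0 to 1 without each library, and 0 with the replicate block, in which libraries share only a number and which left Srebf2 and Idi1 above it with the same log2 changes (limma adjusted p = 0.482 and 0.469). Library weights gave 3 (Insig1, Srebf2 and Idi1), in a fit with 30.8% of all tested genes under that level. After scaling to the same FPKM sum, all tested genes had a median log2 change of -0.12, and genes under an unadjusted p of 0.05 divided into 614 higher and 1270 lower, against 1022 and 875; with voom they divided into 747 and 1184. A mean of at least 5 FPKM left out Fdps. The cause of these differences was not tested. With 3 libraries per genotype, the 95% intervals of Hmgcs1 and Insig1 span more than 1 log2 unit.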
